A study of Mus musculus with 6 samples.

Results

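Genes of the purinergic pathway were examined, the receptors and surface enzymes through which astrocytes sense extracellular nucleotides and adenosine. They were P2rx4, P2rx7, P2ry1, P2ry2, P2ry6, P2ry14, Entpd1, Nt5e, Adora1 and Adora2b, taken by gene name, and they make up 10 of the 55357 genes in the deposited expression table. BRAF KE–transfected cortical astrocytes (KE, 3 cultures) were compared with nontransfected astrocytes (NT, 3 cultures) by bulk RNA sequencing. All cultures came from the cortex of C57BL/6 mice at embryonic day 18. The KE cultures received a plasmid that expresses FLAG-tagged BRAF carrying the K499E substitution, a RASopathy variant, from the CMV promoter, and RNA was collected 48 h after transfection. The NT cultures received no plasmid, so the effect of transfection itself and that of the BRAF variant cannot be told apart here. The CMV promoter is not restricted to astrocytes, and the RNA came from whole cultures. The sources give no separate animals or culture days for the 3 cultures of a group, so p-values measure the spread between these cultures, which may be technical.

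ATP and UTP released by cells act on P2X receptors, which are cation channels opened by ATP, and on P2Y receptors, which are coupled to G proteins. Ectonucleotidases on the cell surface break the nucleotides down, with Entpd1 (CD39) removing phosphates from ATP and ADP and Nt5e (CD73) converting AMP to adenosine, which then acts on the adenosine receptors. Astrocytes use this system for calcium signaling and for restraint of synapses through the A1 receptor, and microglia use it to sense damage.

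Braf, the transfected gene, was far higher in each KE culture than in NT, but reads of the plasmid and of the endogenous gene were not separated. Braf lay at 34933 to 40978 normalized counts in KE and at 811 to 946 in NT. The libraries held an estimated 24500000 to 34100000 reads, and KE replicate 2 was the shallowest. The defining astrocyte markers Gfap and Aldh1l1 were measured in all 6 cultures. Markers of microglia were also measured, and their summed level over 22 genes was 11887 to 14912 normalized counts in KE and 62588 to 73772 in NT. In bulk samples, fewer cells of a type and less RNA per cell cannot be told apart.

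Of the 10 genes, 4 fell in KE (P2ry6, Adora2b, P2rx7 and Entpd1), 1 rose (Adora1) and 5 did not pass the test (P2rx4, P2ry1, P2ry2, P2ry14 and Nt5e). A gene was called at an adjusted p under 0.05 by limma, two-sided, with Benjamini-Hochberg adjustment over all 15280 genes tested. Of all genes tested, 51.3% were called, 25.3% as higher and 26.0% as lower in KE. The share of members called, 5 of 10, was therefore close to that of the whole table. The median log2 fold change (log2FC, KE minus NT, on the log2 of normalized count + 1) was -0.35 over the members and 0.00 over all genes tested. The 3 KE values did not overlap the 3 NT values for 6 of the 10 members, 5 of them lower and 1 higher in KE, where 59.9% of all genes tested did not overlap, 29.9% lower and 30.1% higher in KE.

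**Figure D1:**
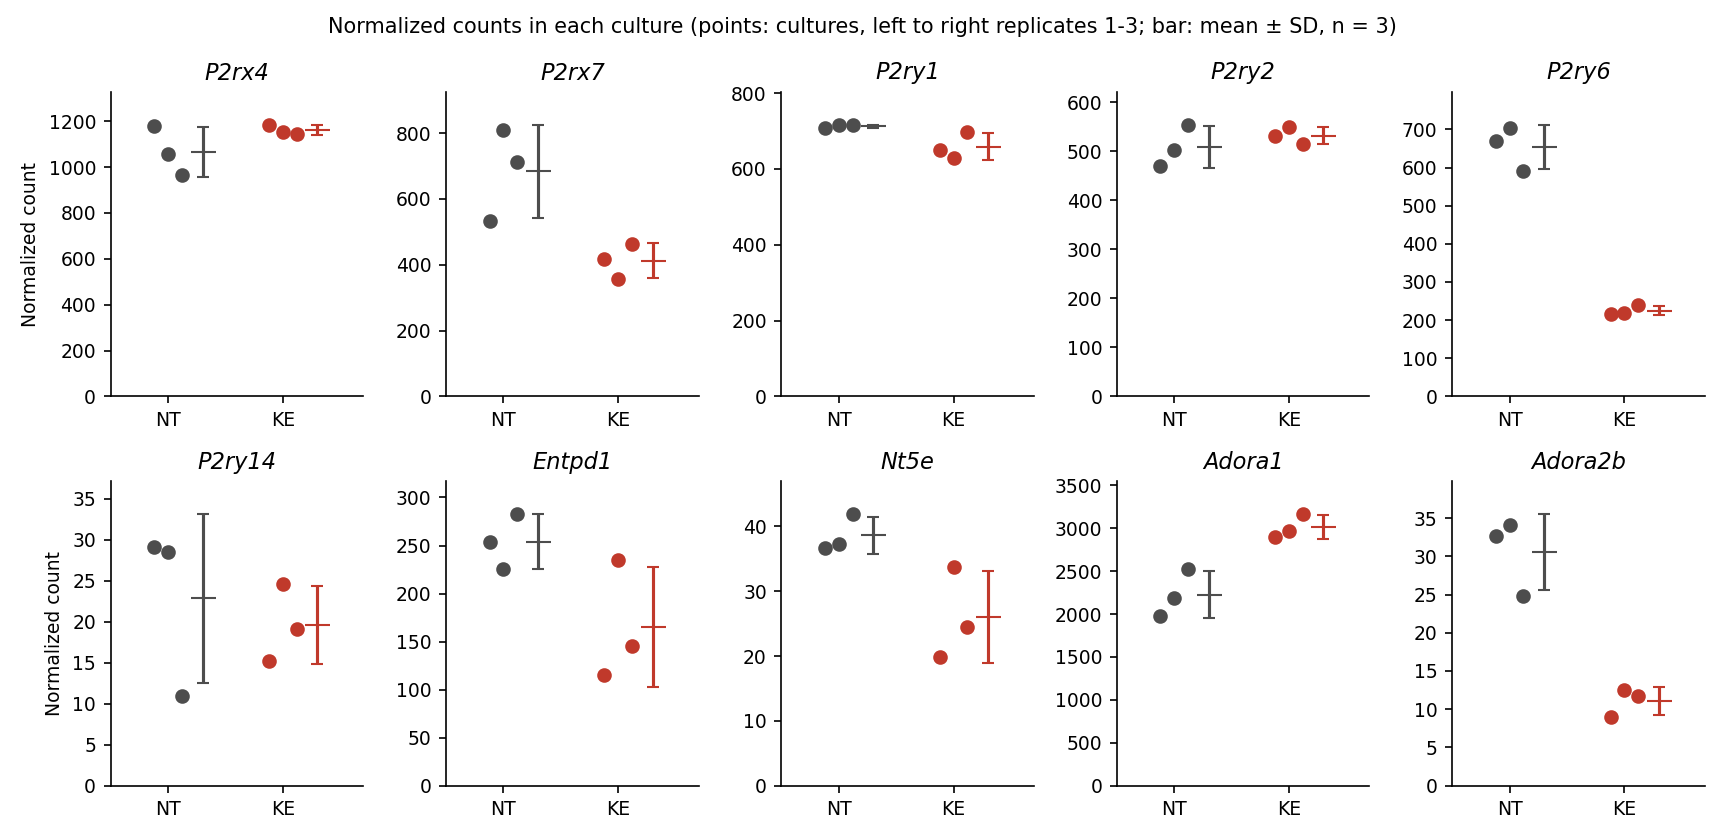
Normalized counts (y axis, linear, from 0) of the 10 genes in each NT and KE culture, with the mean ± SD (n = 3) beside the points. P2ry6, Adora2b and P2rx7 sit lower in all 3 KE cultures and Adora1 higher, whereas 1 KE culture of Entpd1, at 235, lies inside the NT range of 225 to 283.

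The P2X receptor genes P2rx7 and P2rx4 are neighbors on chromosome 5. On GRCm39, P2rx7 spans chr5:122781942-122830400 and P2rx4 spans chr5:122845541-122867803, both on the plus strand, with 15140 bases and no protein-coding gene between them. P2rx7 encodes the low-affinity ATP channel that opens to high ATP and drives inflammasome activation in myeloid cells. Its normalized counts were 418, 356 and 462 in KE replicates 1, 2 and 3 and 532, 811 and 711 in NT replicates 1, 2 and 3. Each KE culture was below each NT culture, with means of 412 ± 53.2 and 684 ± 141 (SD, n = 3). P2rx7 fell by 0.72 on the log2 scale (SE 0.15, 95% interval -1.05 to -0.39, limma adjusted p = 0.00208), which is 1.64-fold lower in KE. P2rx4 encodes a high-affinity ATP channel found on the surface and in lysosomes. It was measured at 1185, 1152 and 1145 in KE and at 1179, 1058 and 964 in NT, and the ranges overlapped. Its log2FC was 0.13 (SE 0.08, 95% interval -0.05 to 0.30, limma adjusted p = 0.214). The P2rx7 to P2rx4 ratio per kilobase of exon was 0.281, 0.247 and 0.322 in KE and 0.360, 0.611 and 0.589 in NT, lower in each KE culture. An exact permutation test of the ratio gave p = 0.1, two-sided, the smallest value that 3 against 3 cultures allow. This pair and the ratio pairs below were chosen after their values were seen, so the p is no independent support.

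The windows around the annotated starts of these genes are shown because P2rx7 and P2rx4 lie side by side and did not receive the same call. The table used holds 300 bases per window, 250 before and 50 after a RefSeq transcript start, taken from GRCm38.p6 and placed here on GRCm39 by an exact match. It covers 9 of the 10 members in 16 windows. Each sequence below is printed 5′ to 3′ on the strand of its gene, with searched motifs in capitals.

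P2rx7, chr5:122781740-122782039, plus strand: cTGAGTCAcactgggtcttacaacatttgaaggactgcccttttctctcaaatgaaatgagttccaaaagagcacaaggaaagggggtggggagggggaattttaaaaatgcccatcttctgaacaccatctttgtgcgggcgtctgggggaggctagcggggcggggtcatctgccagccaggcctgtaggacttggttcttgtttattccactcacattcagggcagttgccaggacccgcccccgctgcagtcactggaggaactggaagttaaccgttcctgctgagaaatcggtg

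P2rx7, inner start, chr5:122788196-122788495, plus strand: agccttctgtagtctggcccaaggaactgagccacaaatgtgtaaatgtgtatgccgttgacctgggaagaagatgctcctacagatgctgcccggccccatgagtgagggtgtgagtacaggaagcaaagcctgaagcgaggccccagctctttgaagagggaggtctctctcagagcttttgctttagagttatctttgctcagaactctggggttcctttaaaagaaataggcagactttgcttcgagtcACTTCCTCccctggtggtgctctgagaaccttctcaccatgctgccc

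P2rx4, chr5:122845357-122845656, plus strand: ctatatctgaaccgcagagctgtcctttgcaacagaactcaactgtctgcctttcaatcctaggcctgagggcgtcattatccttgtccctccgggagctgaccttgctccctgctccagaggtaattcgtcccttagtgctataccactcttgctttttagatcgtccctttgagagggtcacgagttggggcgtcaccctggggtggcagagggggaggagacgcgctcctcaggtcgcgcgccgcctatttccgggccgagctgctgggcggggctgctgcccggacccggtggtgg

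In all, 4 motifs were searched on both strands, with overlaps between motifs allowed. They were the AP-1-like letters TGANTCA, which allow any middle base where the AP-1 consensus has C or G, the cAMP response element TGACGTCA, the PU.1 core GAGGAAGT and the core of the interferon-stimulated response element (ISRE core). Counted with the first transcribed base as 0, the capitals in the first P2rx7 window mark an AP-1-like match at -249 and those at the inner start a PU.1 core match at 3. The P2rx4 window held none of the 4 motifs. Of all 32851 windows in the table, 7.81% held the AP-1-like letters (5.20% with C or G in the middle), 3.2% the PU.1 core, 3.44% the ISRE core and 1.79% the cAMP response element. Among the 16 member windows, 4 held the AP-1-like letters (1 each of P2rx7 and Adora1 and 2 of P2ry14), of which the P2rx7 match and 1 of P2ry14 had C or G in the middle, 1 held the PU.1 core, and the ISRE core and the cAMP response element had none. A match of letters is a description and no evidence of binding.

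Of the P2Y receptors, the UDP receptor P2ry6 fell, and the ATP and UTP receptor P2ry2, the ADP receptor P2ry1 and the UDP-sugar receptor P2ry14 were not called. P2ry6, which in microglia triggers phagocytosis, lies at chr7:100585308-100624173 on the minus strand. It was measured at 216, 219 and 239 normalized counts in KE and at 670, 703 and 591 in NT. Every NT culture was above every KE culture by a wide gap, with means of 225 ± 12.4 in KE and 655 ± 57.8 in NT (SD, n = 3). P2ry6 fell by 1.54 on the log2 scale (SE 0.10, 95% interval -1.76 to -1.31, limma adjusted p = 4.4e-07), or 2.90-fold, the largest change of the 10 genes. Of all genes tested, 94.3% had a smaller absolute log2FC. P2ry2, a receptor linked to phospholipase C and calcium release, is the next protein-coding gene on the same strand, at chr7:100640649-100663957, 16475 bases from P2ry6. Its values were 532, 549 and 515 in KE and 470, 504 and 555 in NT. They overlapped, with a log2FC of 0.07 (SE 0.09, 95% interval -0.13 to 0.26, limma adjusted p = 0.563). Per kilobase of exon, the P2ry6 to P2ry2 ratio was 0.625, 0.613 and 0.713 in KE and 2.19, 2.15 and 1.64 in NT, so P2ry6 was the higher of the pair in each NT culture and the lower in each KE culture. The exact permutation p was again 0.1, the smallest possible, for a pair chosen after its values were seen. The table of start windows holds no entry for P2ry6.

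P2ry1 (chr3:60910159-60916403, plus strand) drives calcium waves in astrocytes in response to ADP. Its normalized counts were 651, 629 and 698 in KE and 707, 715 and 715 in NT. All 3 KE values were below all 3 NT values, but by little, since the log2FC was -0.11 (SE 0.08, 95% interval -0.28 to 0.05, limma adjusted p = 0.236). P2ry14 (chr3:59021276-59061134, minus strand) was low and scattered, at 15.2, 24.6 and 19.1 in KE and 29.1, 28.5 and 11 in NT. These counts rest on an estimated 12 to 29 reads per culture. The log2FC of -0.12 had a standard error of 0.40 (95% interval -0.996 to 0.76, limma adjusted p = 0.822), so it could not be told from no change. P2ry14, P2ry12 and P2ry13 lie inside the span of Med12l, which is transcribed from the opposite strand (358 normalized counts in KE and 533 in NT, means of 3). In the annotation used here, P2ry14 and P2ry13 share 0 exon bases with Med12l and P2ry12 shares 294 of 3206. The library kit marks strand, but the use of strand in counting is not given in the sources used here, so some reads of P2ry12 may come from Med12l.

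Of the surface enzymes that take extracellular ATP to adenosine, Entpd1 fell and Nt5e was not called. Entpd1 (chr19:40600810-40731585, plus strand) was measured at 115, 235 and 145 normalized counts in KE and at 254, 225 and 283 in NT. KE replicates 1 and 3 were below every NT culture, and KE replicate 2 was above NT replicate 2. Entpd1 fell by 0.68 on the log2 scale (SE 0.22, 95% interval -1.16 to -0.19, limma adjusted p = 0.0241), or 1.60-fold. This call was lost when KE replicate 1 (adjusted p = 0.0991), KE replicate 3 (0.0797), NT replicate 1 (0.0575) or NT replicate 3 (0.0669) was left out of the limma fit. With all cultures kept, it was also lost under quantile normalization (limma adjusted p = 0.0552) or without the variance trend (0.0811). In KE replicate 2 the summed microglial marker level, 14912, was also the highest of the KE cultures, and its part in the Entpd1 value was not tested. Nt5e (chr9:88209089-88254146, plus strand) was measured at 19.9, 33.8 and 24.4 in KE and at 36.6, 37.3 and 41.9 in NT. Every KE value was below every NT value, but the gene did not pass the test (log2FC -0.58, SE 0.26, 95% interval -1.16 to 0.00, limma adjusted p = 0.0882). KE replicate 2 was again the highest KE culture, and without it the adjusted p of Nt5e in the limma fit was 0.0372.

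The member adenosine receptors, Adora1 and Adora2b, moved in opposite directions. Adora1, the inhibitory A1 receptor that couples to Gi proteins, lies at chr1:134126948-134163579 on the minus strand. It reached 2903, 2963 and 3167 normalized counts in KE and 1974, 2181 and 2523 in NT. All 3 KE cultures were above all 3 NT cultures, with means of 3011 ± 138 and 2226 ± 277 (SD, n = 3). Adora1 was the only member to rise, by a log2FC of 0.44 (SE 0.08, 95% interval 0.26 to 0.63, limma adjusted p = 0.00122), or 1.36-fold. Its exons share 3361 of 6414 bases with Mybph on the opposite strand, a gene with means of only 3.61 normalized counts in KE and 1.04 in NT. Adora2b, the low-affinity receptor that couples to Gs proteins and raises cAMP, lies at chr11:62139804-62157279 on the plus strand. It was measured at 9.03, 12.5 and 11.8 in KE and at 32.7, 34.1 and 24.8 in NT, an estimated 10 to 13 reads per KE library and 26 to 33 per NT library. The groups did not overlap, and Adora2b fell by 1.38 on the log2 scale (SE 0.31, 95% interval -2.05 to -0.71, limma adjusted p = 0.00306), or 2.60-fold. The Adora1 to Adora2b ratio per kilobase was 92.8, 68.4 and 77.7 in KE and 17.4, 18.4 and 29.3 in NT. It was higher in each KE culture (exact permutation p = 0.1), for a pair chosen after its values were seen.

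Start windows of this pair are shown because Adora1 rose and Adora2b fell. Of the 2 Adora1 windows in the table, the one with a motif match is printed, and the other, chr1:134162545-134162844, held none of the 4 motifs.

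Adora1, chr1:134163146-134163445, minus strand: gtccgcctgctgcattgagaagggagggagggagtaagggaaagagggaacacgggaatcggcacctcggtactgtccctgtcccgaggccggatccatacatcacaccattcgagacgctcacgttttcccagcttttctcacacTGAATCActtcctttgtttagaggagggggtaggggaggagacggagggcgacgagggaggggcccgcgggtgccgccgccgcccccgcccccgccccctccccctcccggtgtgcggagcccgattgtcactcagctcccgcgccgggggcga

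Adora2b, chr11:62139560-62139859, plus strand: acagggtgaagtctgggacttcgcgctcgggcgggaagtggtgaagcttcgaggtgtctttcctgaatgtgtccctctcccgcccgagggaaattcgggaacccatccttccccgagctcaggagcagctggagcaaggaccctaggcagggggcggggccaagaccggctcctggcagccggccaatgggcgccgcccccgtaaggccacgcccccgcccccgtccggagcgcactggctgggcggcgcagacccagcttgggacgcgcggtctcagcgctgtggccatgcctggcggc

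The capitals in the printed Adora1 window mark an AP-1-like match at -104, counted as above, with A in the middle and so not the AP-1 consensus. The Adora2b window held none of the 4 motifs.

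**Figure D2:**
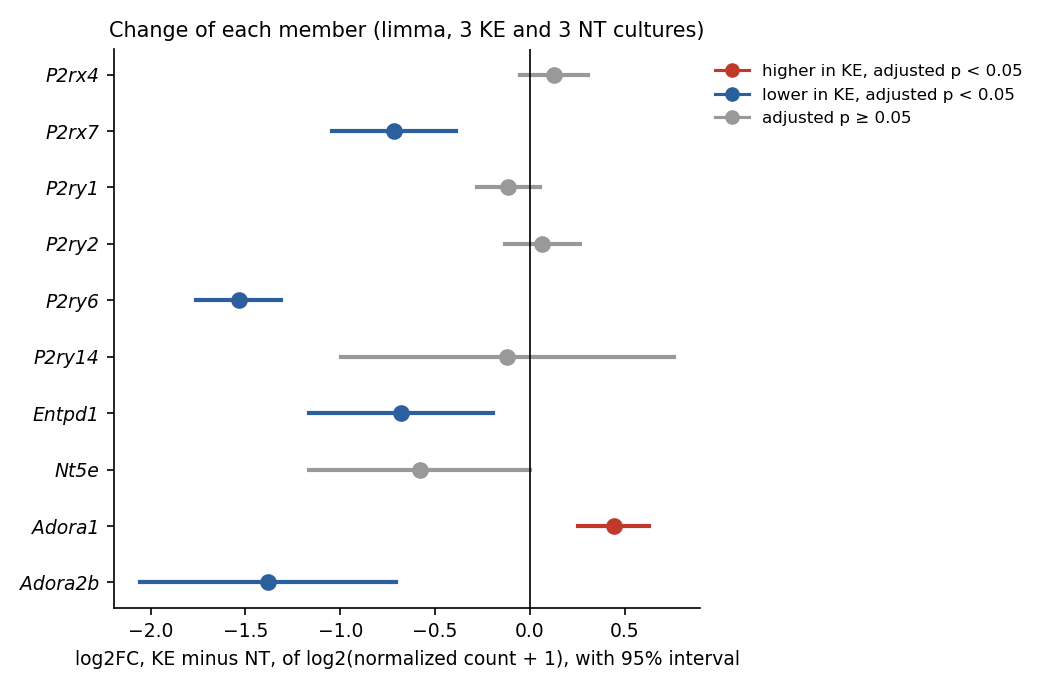
Log2 fold change (KE minus NT, x axis) of each of the 10 genes from the limma fit, with 95% intervals as bars. The intervals of P2ry6, Adora2b, P2rx7 and Entpd1 lie below 0 and that of Adora1 above 0, whereas Entpd1 reaches up to -0.19.

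Levels were compared between genes as normalized counts per kilobase of exon. Adora1 was the highest member in both groups, at 469.5 ± 21.6 in KE and 347.1 ± 43.2 in NT (SD, n = 3). In NT, P2ry1 (148 ± 0.969) and P2rx4 (137 ± 13.9) followed and their values overlapped. P2ry6 came next at 100.5 ± 8.88, above P2rx7 (70.1 ± 14.5) and P2ry2 (50.9 ± 4.27), of which the latter pair overlapped. In KE, P2rx4 (149 ± 2.77) and P2ry1 (137 ± 7.29) came after Adora1 without overlap, then P2ry2 (53.2 ± 1.69). P2rx7 (42.2 ± 5.45) and P2ry6 (34.5 ± 1.90) overlapped. By its mean, P2ry6 went from the fourth place in NT to the sixth in KE, where it was not separated from P2rx7. The last 4 genes held their order in both groups. Entpd1 was at 23.2 ± 8.74 in KE and 35.7 ± 4.04 in NT, Adora2b at 6.0 ± 0.989 and 16.5 ± 2.71, Nt5e at 2.97 ± 0.806 and 4.41 ± 0.331, and P2ry14 at 1.75 ± 0.422 and 2.04 ± 0.916. Per length, the adenosine-producing Nt5e was thus among the lowest and the adenosine receptor Adora1 the highest of the 10 genes.

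**Figure D3:**
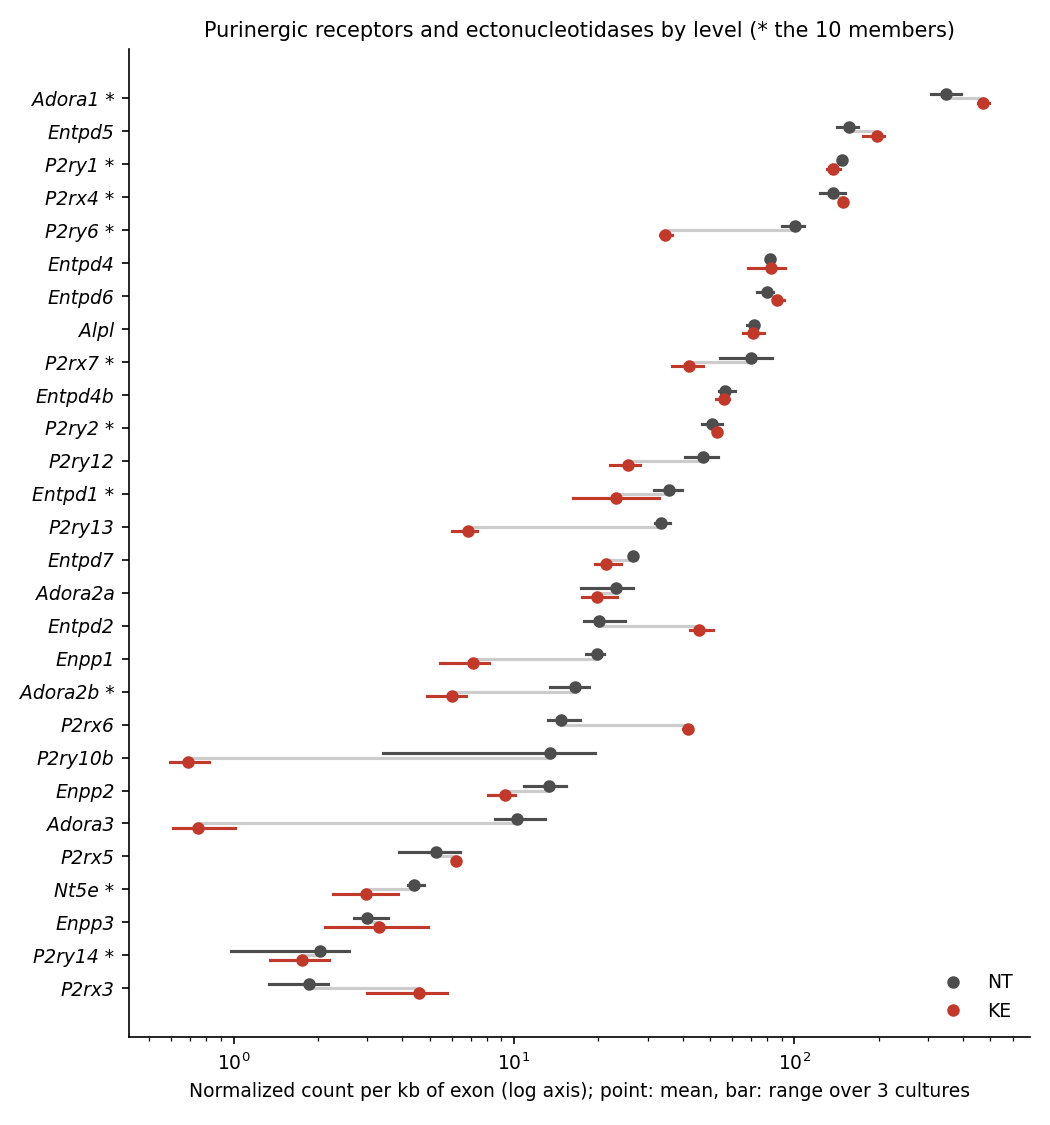
Normalized counts per kilobase of exon (log axis) of the 10 genes, marked with asterisks, and of the other tested receptors and nucleotide-degrading enzymes. Points are means and bars the range over the 3 NT or 3 KE cultures. Adora1 is highest in both groups, and P2ry6 moves from 100.5 in NT to 34.5 in KE, past P2ry2.

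The other nucleotide and adenosine receptors were examined as a list of 12 genes, of which 8 passed the filter on low values. Of these, 2 rose, 4 fell and 2 were not called, with a median log2FC of -0.54. The ADP receptor P2ry13 fell by 2.23 on the log2 scale (limma adjusted p = 4.3e-06), from 119, 107 and 105 normalized counts in NT to 19.9, 23.8 and 24.4 in KE. P2ry12, the ADP receptor that guides microglial processes, fell by 0.88 (limma adjusted p = 0.00113), from 153, 131 and 171 to 85.2, 90.6 and 70.5. Both stood below NT in each KE culture. Adora3 fell by 3.37, to 2.27 to 3.78 in KE from 32.0 to 48.0 in NT (limma adjusted p = 2.8e-05). P2ry10b fell by 3.66 (limma adjusted p = 2.9e-04), but NT replicate 3, at 20.5, was far below the other NT cultures at 105 and 117. Reads of P2ry10b may be shared with the similar gene P2ry10. Adora3 and P2ry10b, with KE means of 2.78 and 4.14, passed the filter only through their NT values. The ATP channel subunits P2rx6 (2.83-fold, limma adjusted p = 1.3e-05) and P2rx3 (2.31-fold, 0.0145) rose, P2rx6 to 184 to 198 in KE from 60.8 to 79.0 in NT. P2rx3 lost its call without KE replicate 2 (limma adjusted p = 0.0593) or KE replicate 3 (0.0556). The remaining Gs-coupled adenosine receptor, Adora2a, was not called (log2FC -0.21, limma adjusted p = 0.394).

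Of 12 other nucleotide-degrading enzymes, 10 were tested, 2 rose, 3 fell and 5 were not called, with a median log2FC of -0.01. Entpd2, a surface enzyme that prefers ATP over ADP, rose by a log2FC of 1.18 (limma adjusted p = 3.3e-04), with 123, 145 and 120 normalized counts in KE and 50.5, 70.3 and 50.6 in NT. The Entpd1 to Entpd2 ratio per kilobase was 0.373, 0.643 and 0.479 in KE and 2.00, 1.28 and 2.23 in NT (exact permutation p = 0.1). On this scale, Entpd1 was the higher in each NT culture and Entpd2 in each KE culture. The order in KE depended on the division by exon length. In normalized counts without it, the ratio was 0.94, 1.6 and 1.2 in KE replicates 1, 2 and 3. Entpd1 was then the higher in KE replicates 2 and 3 and, as before, in each NT culture. Entpd5 also rose (log2FC 0.33, limma adjusted p = 0.0076). The 4 ratios were chosen after their values were seen, and each had the same p and an adjusted p of 0.1. Enpp1, which splits ATP into AMP and pyrophosphate, fell by 1.48 on the log2 scale (limma adjusted p = 4.6e-05), and Enpp2 (-0.50, 0.0378) and Entpd7 (-0.32, 0.0375) fell close to the threshold. In limma fits with single cultures left out, Enpp2 lost its call without any 1 of the 3 KE cultures, NT replicate 1 or NT replicate 2 (adjusted p = 0.0524 to 0.134), and Entpd7 without KE replicate 1, KE replicate 3 or any 1 of the 3 NT cultures (0.0672 to 0.124). Alpl, a surface phosphatase that also yields adenosine, was not called (log2FC -0.01, limma adjusted p = 0.923).

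For ATP release, 12 of 16 listed genes were tested, 3 rose and 2 fell, with a median log2FC of 0.19. Panx2 (1.98, limma adjusted p = 7.2e-05), Calhm6 (1.26, 0.0165) and the volume-regulated anion channel subunit Lrrc8a (0.53, 7.7e-05) rose. Calhm6 lost its call without KE replicate 3 (limma adjusted p = 0.0733) or NT replicate 1 (0.0555). Gja1, the connexin 43 of astrocyte gap junctions, fell by 0.46 (limma adjusted p = 1.4e-04) and Lrrc8b by 0.45 (3.1e-04). The channel gene Panx1 was not called (log2FC -0.07, limma adjusted p = 0.608). For adenosine uptake and metabolism, 11 of 13 genes were tested, 2 rose and 6 fell, with a median log2FC of -0.44. The equilibrative transporter Slc29a1 (log2FC -0.53, limma adjusted p = 7.8e-05), adenosine kinase Adk (-0.44, 9.7e-05), adenosine deaminase Ada (-0.66, 0.00112), Ahcy (-0.67, 2.4e-06), Slc29a2 (-0.66, 0.00483) and the concentrative transporter Slc28a2 (-3.92, 9.8e-05) were the 6 that fell. For Slc28a2, NT replicate 3, at 19.9, was far below the other NT cultures at 59.0 and 70.7. With a KE mean of 2.08, Slc28a2 passed the filter on low values only through its NT values. Adk and Ada remove adenosine, whereas Ahcy releases it. The AMP deaminases Ampd3 (0.60, limma adjusted p = 1.8e-05) and Ampd2 (0.23, 0.0107) rose.

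Downstream of P2ry1, P2ry2 and P2ry6, 10 of 11 genes of the Gq, phospholipase C and IP3 receptor pathway were tested, 1 rose, 4 fell and 5 were not called (median log2FC -0.10). The widely expressed Gq subunits Gnaq (log2FC -0.14, limma adjusted p = 0.0886) and Gna11 (0.10, 0.157) were not called. Without NT replicate 2, Gnaq was called lower (-0.19, limma adjusted p = 0.0389). The more restricted subunits Gna15 (-2.31, limma adjusted p = 2.1e-06) and Gna14 (-1.05, 8.9e-06) fell, as did Itpr3 (-1.54, 5.7e-05) and Plcb3 (-0.37, 0.00206). Itpr2, the main IP3 receptor of astrocytes, rose (0.36, limma adjusted p = 0.0019). Over the 5 lists, 29 of 51 tested genes were called, 10 up and 19 down, which is 56.9% against 51.3% for all genes.

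**Figure D4:**
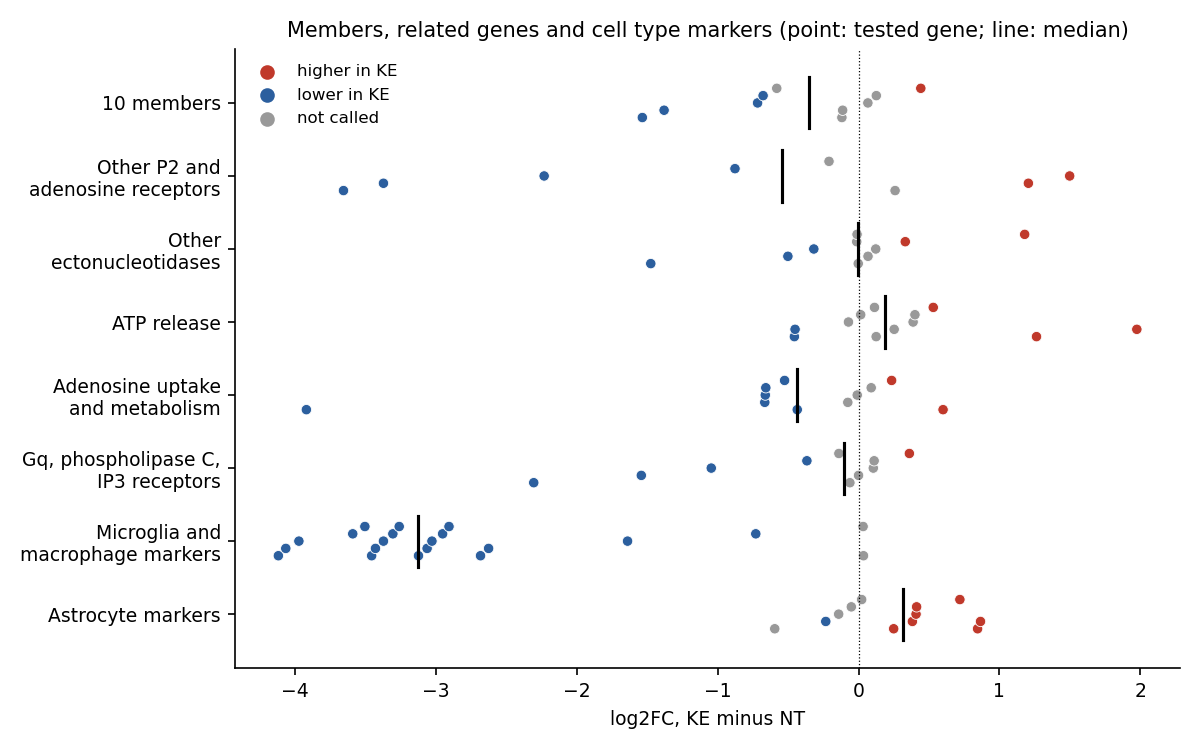
Log2 fold change (KE minus NT) of the tested genes of each list, 1 point per gene, with the list median as a bar. The median is -0.35 for the 10 members and -0.54 for the other receptors, -3.12 for the microglial markers and 0.32 for the astrocyte markers.

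Markers of other cell types moved with the same contrast. Of 22 microglia and macrophage markers, 19 fell, Sall1 and Cd14 were not called, and Siglech was listed at 0 in all cultures. Their median log2FC was -3.12, with -3.97 for Cx3cr1 and -2.63 for Tmem119 (both called by limma). P2ry6 (-1.54), P2rx7 (-0.72), Entpd1 (-0.68), P2ry12 (-0.88), P2ry13 (-2.23) and Adora3 (-3.37), all known to be expressed by microglia, also fell. Entpd1 did so with overlap between the groups, and Adora3 passed the filter only through its NT values. P2rx4, which microglia also express, had a log2FC of 0.13 and was not called. Of 12 astrocyte markers, 7 rose, 1 fell and 4 were not called, with a median of 0.32 and a summed level of 207812 to 214600 normalized counts in KE and 154795 to 165133 in NT. Among oligodendrocyte lineage markers 1 rose and 7 fell of 9 tested, among neuron markers 3 rose and 1 fell of 7, and among vascular and fibroblast markers 3 rose and 3 fell of 8. Of all genes tested, 25.3% rose and 26.0% fell. The part of each cell type in the changes of the 10 genes was not tested.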

How the data were processed

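RNA was sequenced from 6 cultures, 3 KE and 3 NT, grouped by their labels. The sources name TruSeq stranded mRNA libraries, Trim Galore, STAR and Salmon. The study's methods name the mouse build GRCm39, whereas the submitters' processing notes list GRCh38, and the gene identifiers are those of mouse. The deposited signal values are gene counts that the authors divided by DESeq2 size factors. The methods mention an adjustment for batches without naming them, and whether the deposited values carry it is not known. The values were not whole multiples of 1 read (74.7% to 77.6% of low values were within 0.1 of one, where 95% was required), so no count test was run.

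Values were transformed to log2(value + 1). Genes with a mean of at least 10 were fitted with limma 3.58.1 in R 4.3.3 (variance trend, no block, two-sided, Benjamini-Hochberg adjustment over all genes tested). The fit was run on simulated data in which 198 of 15028 genes were changed. It called 90.9% of these and 8 of 14830 unchanged genes. Far fewer genes were changed there than were called here, so this result does not measure the error of the present calls. Estimated reads take the most frequent low nonzero value of each library as 1 read. They are approximate, because many low values were not whole multiples of it. The precision of low genes is limited by their few reads. Fold changes on this scale understate the change of low genes. Positions and exon lengths are from the Gencode annotation of GRCm39, and start windows from RefSeq. The named genes are Braf, all 10 members, the 4 called genes with the largest rise and the 4 with the largest fall of each pathway list, P2ry12 and P2ry13, and 4 set markers. Slc29a1, Adk, Adora2a, Alpl, Panx1, Gnaq, Gna11, Sall1, Cd14, Siglech, Med12l and Mybph fall outside this rule and were chosen after their values were seen. The members and lists were chosen with earlier results of these data known. Alternatives were 2 other pseudocounts, 2 other filters, 2 other scalings, no trend, a replicate block and each culture left out.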

Additional observations from a re-analysis of the deposited data

How the results depend on the processing

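P2ry6, P2rx7, Adora2b and Adora1 kept their direction and call under every alternative that gave a value. Their log2FCs were, in this order, -1.61 to -1.47, -0.89 to -0.58, -1.52 to -0.94 and 0.36 to 0.54. From 3 to 5 members fell, where 3496 to 4079 of all genes fell in the same fits, with 12965 to 25499 genes tested. Adora2b, Nt5e and P2ry14 had no value with a mean of at least 50, so fewer members were tested there. Entpd1 lost its call with quantile normalization (-0.55, limma adjusted p = 0.0552) and without the variance trend (-0.68, 0.0811), and ranged from -0.96 to -0.45 with single cultures left out. Its adjusted p then ran from 0.000946 to 0.0991. Nt5e was called without the trend (-0.58, limma adjusted p = 0.0486) and ranged from -0.78 to -0.41 with single cultures left out (adjusted p = 0.0372 to 0.257). P2ry14 ranged from -0.56 to 0.11 with single cultures left out and changed sign without KE replicate 1, NT replicate 1 or NT replicate 2. The cause was not tested. Among other nucleotide-degrading enzymes, 1 gene fell with no filter and 1 with quantile normalization (Enpp1), and 1 to 2 with single cultures left out. Among other receptors, 1 rose and 2 fell with a mean of at least 50, where P2rx3, P2ry10b, Adora3, Calhm6 and Slc28a2 were not tested, and 1 to 2 rose with single cultures left out. Of 137 recomputed log2FCs of members, 126 kept direction and call, 3 reversed, 2 became called and 6 lost their call. Of 210 recomputed counts of called genes, 200 were within 1.5 times the reported count and 10 were not. Correlations of deviations were small but positive between cultures of the same replicate number (0.0589 to 0.0664), each the best match of its culture. Between cultures of different numbers they were -0.0499 to -0.0105. Whether the replicate numbers mark shared preparations is not known. With a replicate block, 3967 genes rose and 4079 fell, and no member call changed, but Enpp2 lost its call (-0.50, limma adjusted p = 0.0605) and Gnaq was called lower (-0.14, 0.0459). P2ry14, Nt5e and Adora2b rest on few reads per culture, and the part of depth in their spread was not tested.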
